A study of Trachemys scripta with 24 samples.

Results

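Small RNA was sequenced from the plasma of 8 female pond sliders (Trachemys scripta) at 3 time points around removal of the ovaries, which gave 24 libraries. The entries described here are all rows of the count table whose miRNA family number is 1300 or higher, under every species prefix and for both arms of the hairpin, with each entry taken once. They numbered 405 of the 1994 entries in the table and covered 319 mature names in 146 families. Plasma at T0 was drawn 24 h before surgery, at T1 2.5 h after it and at T2 36 h after it, with 8 libraries at each. All turtles were clinically healthy and sexually mature. All were anaesthetised with dexmedetomidine, ketamine, midazolam and alfaxalone before gonadectomy through an endoscope-assisted approach in front of the hind limb, the sedation was reversed afterwards, and blood was taken into EDTA tubes from the cervical sinus. The turtles were already in hospital at T0. Food was withheld from before the T0 draw, and the turtles fed again before T2. No group of turtles without surgery was analysed here. Surgery, anaesthesia, feeding, length of hospital stay and elapsed time therefore cannot be told apart in any comparison with T0.

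MicroRNAs are short RNAs cut from the stem of a hairpin precursor, and they lower the translation or stability of messenger RNAs that pair with their seed. Each hairpin can give a mature strand from its left (5p) and its right (3p) arm, and usually one of them prevails. Plasma carries miRNAs from blood cells and tissues bound to proteins or enclosed in vesicles. The miRBase database numbers families in the order in which they were submitted, so a high number marks a late entry in the catalogue and often, though not always, a family known from few species. No miRNA sequences of this turtle were used by the study, and reads were assigned to the hairpins of 4 reptiles: the painted turtle Chrysemys picta (prefix cpi), the green anole lizard Anolis carolinensis (aca), the American alligator Alligator mississippiensis (ami) and the king cobra Ophiophagus hannah (oha). The painted turtle is the closest relative of the slider among these 4.

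The family number did not mark reptile-restricted miRNAs as a whole. mir-1306, mir-3618, mir-3064 and mir-3120 are also catalogued in mammals, and mir-1388 and mir-2188 in fishes and birds. Because of these families, the entries are called here by their family number and not by a time of origin. Families found under all 4 species prefixes numbered 10 and held 85.8% of the counts on the entries of number 1300 or higher. The 126 families found under a single prefix held 12.7%. All 4 prefixes are reptiles, so this split does not show which families occur outside reptiles. Adding counts over species entries also favours families under several prefixes. The table marks 66 entries as "mirBase", all of which were let-7 entries, and gives the 405 the other mark that it uses, as it does every remaining entry, so the mark did not separate these families from the rest.

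The arm names in the table could not be taken at face value. For 30 painted turtle hairpins of other families whose prevailing arm is well known in vertebrates, the arm with more counts was the opposite one in 30 of 30. In mir-223 the arms were nearly even, with 27461 counts on the entry named 3p and 27955 on 5p. The list of hairpins was chosen after counts had been seen. Arm names are used below only as the names of entries, and no statement about the true arm is made. The same read may be assigned to more than 1 species entry, so counts added over species are counts of assignments and not of molecules, and nothing was stated on whether the counting used strand.

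The libraries differed widely in depth. With each entry taken once, the totals ran from 162285 to 1231952 counts at T0 (median 512310), from 132522 to 887581 at T1 (median 496379) and from 22648 to 2042924 at T2 (median 418194). The smallest library was T2 replicate t39. No 2 of the 24 libraries had identical counts. Entries with no count in any library were not in the table, so absence of a family from the table says only that it is not listed.

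The 405 entries were a small share of the plasma miRNA counts. They held 163873 counts, or 1.17% of all counts, against 13831018 counts (98.8%) on the 1589 other entries. Per library the share had a median of 1.31% at T0 (1.12% to 1.51%), 1.17% at T1 (0.655% to 2.10%) and 1.14% at T2 (0.908% to 1.50%). The ranges of the 3 time points overlapped, and the spread at T1, with both the lowest and the highest library of the 24, was wider than the gap between the medians. An entry of number 1300 or higher had a median of 26 counts over all libraries, against 111 for the other entries. Of the 405, 41 (10.1%) had a count in every library, against 400 (25.2%) of the others, and 27 (6.67%) had a count in 1 library only, against 39 (2.45%) of the others.

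Each library held a different part of the set. The median number with at least 1 count was 201 at T0 (109 to 277), 169.5 at T1 (151 to 277) and 171 at T2 (80 to 216). At equal depth the numbers were lower. Brought to the 22648 counts of the smallest library by the expected number under random thinning, the medians were 65.4 entries at T0, 67.6 at T1 and 60.4 at T2. With at least 10 counts asked for, they were 58.5, 50.5 and 54. Entries seen at all 3 time points numbered 295 (72.8%), against 1384 (87.1%) of the others. At a single time point 33 were seen (8.15%), against 66 (4.15%) of the others, 12 of the 33 at T0, 11 at T1 and 10 at T2. Among them, the entry with the most counts was aca-mir-5429-5p, with 22 counts in 4 libraries of T0, and 6 of the 33 were in 2 or more libraries, so no entry with more than 22 counts was seen at a single time point.

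**Figure D1:**
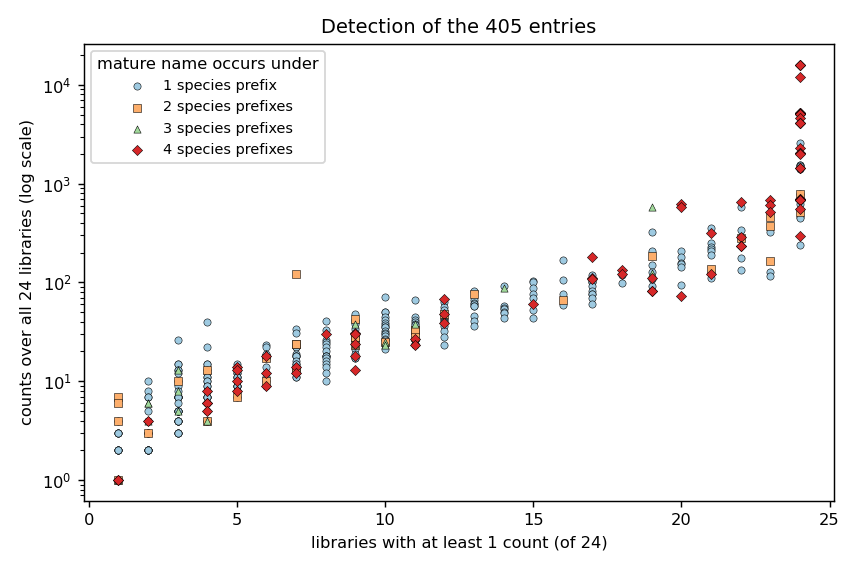
Each of the 405 entries is a point, with the number of libraries that had at least 1 count on the x axis and its counts over all 24 libraries on the y axis (log scale); colours and shapes give the number of species prefixes under which the mature name occurs. Names found under 4 prefixes fill the top right corner, with up to 15979 counts, while most names under 1 prefix lie below 100 counts.

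The lizard gave the most entries and the painted turtle the most counts. There were 206 aca entries with 43116 counts and a median of 15 counts per entry, 95 cpi entries with 52837 counts and a median of 45, 69 ami entries with 37369 counts and a median of 40, and 35 oha entries with 30551 counts and a median of 33. Among the aca entries, 16 of 206 had a count in 1 library only, against 2 of 95 cpi entries. Names found under a single prefix numbered 277, of which 180 were only aca, 56 only cpi, 30 only ami and 11 only oha. Together these held 14.9% of the counts. The 42 names found under 2 or more prefixes had 128 entries and 85.1% of the counts, and the 19 names found under all 4 prefixes alone had 82.3%. These shares add the species entries of each name, which favours names found under several prefixes.

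By number, the counts fell mostly in the lowest range. Families from 1300 and below 2000 had 107 entries and 75.4% of the counts, those from 2000 and below 3000 had 30 entries and 12.2%, those from 3000 and below 5000 had 12 entries and 1.53%, and families of 5000 or higher had 256 entries and 10.8%. Under cpi alone, the ranges in that order had 36747, 7659, 77 and 8354 counts. The last range held most of the names found under a single prefix. Its main block was 172 aca entries of 81 families numbered 5390 to 5470, which are known from the anole lizard, with every number of that block present. They had 6919 counts in all and a median of 14 counts each, 59 of them had fewer than 10 counts, and 1 had a count in every library. The second block, families 9572 to 9613, had 40 cpi entries with 8354 counts and a median of 41, 30 ami entries with 2218 counts, and 11 aca entries with 229 counts. A painted turtle entry of this block thus had more counts at the median than a lizard entry of the other block, and 4 of the 40 had a count in every library.

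A few families made up most of the signal. mir-1306 had 62446 counts (38.1%) and mir-1388 had 40701 (24.8%), together 62.9% of the counts on these entries. Next came mir-2188 with 13256 (8.09%), mir-1677 with 10133 (6.18%), mir-1329 with 6822 (4.16%) and mir-2970 with 5397 (3.29%). mir-9579, mir-3120, mir-9578 and mir-9587 followed with 2897, 2339, 1606 and 1466 counts, and the 10 families named so far held 89.7%. These counts add the entries of all prefixes, which favours families listed under several. Under cpi alone, mir-1306 had 16655 counts, mir-1388 10314, mir-1677 6288, mir-2188 4280, mir-2970 2972, mir-9579 2897 and mir-1329 2121. The order below mir-1388 thus differed. The 528 cpi entries were also ordered by mean CPM (counts scaled to a common library total). There, cpi-mir-1306-5p was number 39, cpi-mir-1388-3p number 58, cpi-mir-2970-5p number 69 and cpi-mir-2188-3p number 72.

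The species entries of one name agreed for some families and not for others. mir-1306-5p had 15977 counts under cpi, 15954 under aca, 15979 under ami and 11943 under oha, and mir-1388-3p had 5098, 5061, 5073 and 5188 under the same prefixes in that order. In mir-2188-3p the first 3 stood close, with 4147, 4088 and 4141 counts, while oha had 39. In mir-2970-5p the painted turtle entry stood alone, with 2270 counts under cpi against 179 under aca, 236 under ami and 48 under oha, although the other arm, mir-2970-3p, had between 609 and 702 counts under all 4. mir-1788-3p, picked after its values had been seen, was highest under aca, with 686 counts, against 234 under ami, 14 under cpi and 13 under oha. Of the 42 names with several entries, 31 differed by more than 2 times between their highest and lowest entry and 3 lay within 1.1 times. For 20 of the 39 names that had a cpi entry, this entry had the most counts or shared first place. Where it did not, the gap was in some names small, as in mir-1306-5p with 15977 counts under cpi and 15979 under ami. Sequences were not at hand, and how far these gaps follow differences in sequence was not tested.

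**Figure D2:**
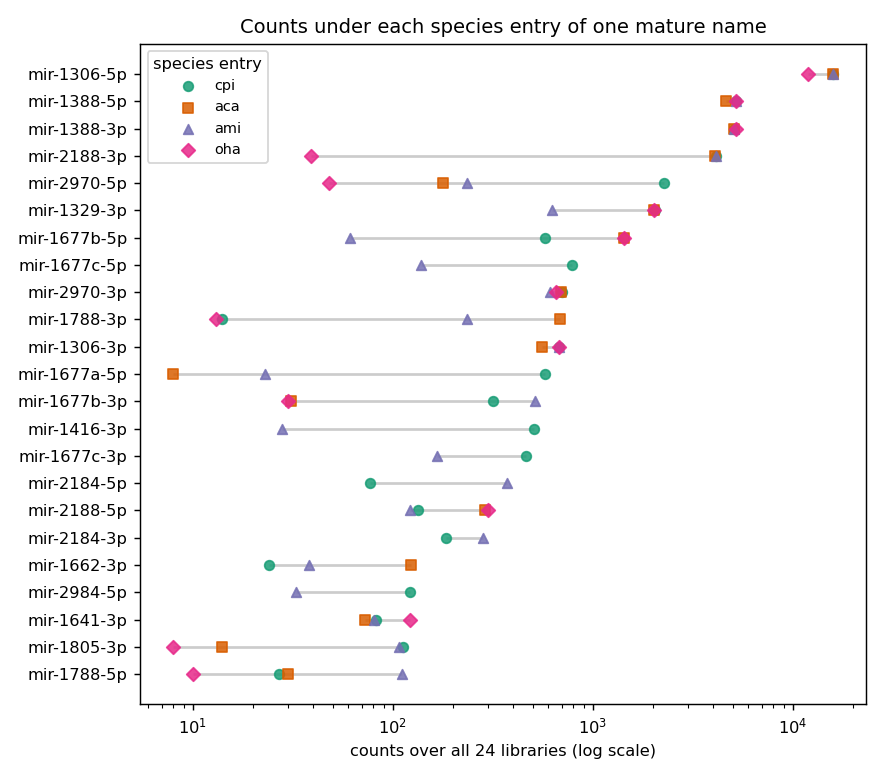
Counts over all 24 libraries (x axis, log scale) under each species entry of the 23 mature names with an entry of at least 100 counts; a grey line joins the entries of one name. The 4 entries of mir-1388-3p lie on top of each other, whereas those of mir-2188-3p range from 39 to 4147 and those of mir-2970-5p from 48 to 2270.

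The arms of a hairpin were mostly unequal. Of 77 hairpins with both arms listed and at least 100 counts, 35 had more than 90% of their counts on one arm and 11 had less than 60%. Under the 4 prefixes mir-1306 had 94.6% to 96.6% on the entry named 5p. mir-2188 had 93.4% to 97.1% on the entry named 3p under aca, cpi and ami, but 88.4% on the entry named 5p under oha, and cpi-mir-1329 had 96.8% on its 3p entry. mir-1388 had more even arms, with 50.1% to 52.1% on its larger arm under the 4 prefixes, and which arm was larger differed between aca and the others.

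The comparison of time points asked whether the plasma level of these miRNAs differed after surgery. To be called, an entry needed an adjusted p no higher than 0.1 in edgeR's quasi-likelihood test and a log2 fold change of 1 or more in size. edgeR's filter on low counts kept 690 entries of the table, among them 60 of the 405 (14.8%), against 630 (39.6%) of the others. These 60 held 91.9% of the counts of the set, and the 345 left out had at most 327 counts each. None of the 60 was called by edgeR at T1 against T0, where 0.58% of all tested entries were called, none at T2 against T0, where 0% of all were called, and none at T2 against T1, again with 0% of all. At an unadjusted p of at most 0.05 with the same fold limit, 2 of the 60 passed at T1 against T0 (4.2% of all tested entries), 0 at T2 against T0 (5.07%) and 0 at T2 against T1 (3.62%). DESeq2, run on all entries with no filter before the fit, also called 0 of the 405 in each comparison (0.802%, 0.0502% and 0% of all entries). It gave some low entries no adjusted p, among them aca-mir-5405-5p and aca-mir-5415-3p at T1 against T0. Such entries could not be called. By unadjusted p and fold it passed 8 of the 405 (1.98%) at T1 against T0, all higher, against 3.41% of all entries. At T2 against T0 it passed 4 (0.988%), all lower, against 3.46% of all. At T2 against T1 it passed 10 (2.47%), all lower, against 2.31% of all. Directions were not counted over all entries, so they cannot be called particular to the 405.

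The middle of the 60 tested entries lay near that of the whole table. The median log2 fold change of the 60 was -0.02 at T1 against T0, where that of all 690 was 0.08, then -0.12 against -0.03 at T2 against T0, and -0.11 against -0.11 at T2 against T1. The smallest adjusted p among the 60 in edgeR was 0.512 at T1 against T0, 0.758 at T2 against T0 and 0.846 at T2 against T1. At T1 against T0, 9 of the 60 had an unadjusted p of at most 0.05 whatever the fold (15% against 8.99% of all tested entries), while 0 did at T2 against T0 (8.26% of all) and 0 at T2 against T1 (4.78% of all). Of the 9, 7 were lower at T1 and came from 2 families, the 4 entries of mir-1306-5p and the entries cpi-mir-1677f-5p, aca-mir-1677b-5p and oha-mir-1677b-5p, and 2 were higher, oha-mir-2188-5p and aca-mir-2188-5p. Since entries of one name may share reads, the 9 cannot be taken as separate observations.

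mir-1306, the most abundant family, lies in mammals within the gene of the miRNA processing factor DGCR8. cpi-mir-1306-5p had between 990 and 2056 CPM at T0 (median 1219), between 662 and 1384 at T1 (median 951) and between 473 and 1703 at T2 (median 1315). At T1, 1 of 8 libraries lay above the T0 median, and at T2 5 of 8 did, while the ranges of all 3 overlapped. The log2 fold change was -0.49 (SE 0.23, adjusted p = 0.548 in edgeR) at T1 against T0 and -0.14 (SE 0.23) at T2 against T0, where it was -0.0220 without T2 replicate t39. oha-mir-1306-5p, counted from fewer reads, had -0.50 (SE 0.22, adjusted p = 0.518 in edgeR) at T1 against T0. The rarer arm cpi-mir-1306-3p had medians of 64.0 (T0), 50.5 (T1) and 40.5 (T2) CPM, and a log2 fold change of -0.57 (SE 0.36, adjusted p = 0.758 in edgeR) at T2 against T0, and -0.374 without T2 replicate t33. mir-3618, which in mammals lies beside mir-1306 in the same gene and was picked after its values had been seen, had only 4 to 19 counts per entry over all libraries.

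The 2 arms of mir-1388, a family known from fishes and birds, had overlapping ranges at each time. cpi-mir-1388-3p had 144 to 682 CPM at T0 (median 358), 174 to 685 at T1 (median 288) and 101 to 401 at T2 (median 302). cpi-mir-1388-5p had 164 to 465 CPM at T0 (median 366), 169 to 853 at T1 (median 201) and 75.0 to 467 at T2 (median 286). For both arms the highest library at T1 was replicate t53, and only 2 of 8 libraries at T1 lay above the T0 median. The log2 fold changes at T1 against T0 were -0.09 (SE 0.34) for the 3p entry and -0.05 (SE 0.39) for the 5p entry, and at T2 against T0 they were -0.47 (SE 0.34) and -0.21 (SE 0.39). The value at T2 was -0.172 for the 3p entry without T0 replicate t37 and -0.0579 for the 5p entry without T2 replicate t54.

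The mir-1677 family had 30 entries, of which 18 were painted turtle paralogs or arms, and entries of this family can share reads. cpi-mir-1677f-5p had 43.9 to 253 CPM at T0 (median 143), 28.8 to 128 at T1 (median 63.5) and 54 to 212 at T2 (median 117). All 8 libraries of T1 lay below the T0 median, although their range overlapped that of T0. The log2 fold change was -0.95 (SE 0.38, adjusted p = 0.512 in edgeR) at T1 against T0 and -0.28 (SE 0.38) at T2 against T0, where it was -0.112 without T0 replicate t34. aca-mir-1677b-5p and oha-mir-1677b-5p had the same count in every library, 1434 in all, and stood at -0.81 (SE 0.37, adjusted p = 0.518 in edgeR) at T1 against T0 and 0.69 (SE 0.37, adjusted p = 0.846 in edgeR) at T2 against T1. Not every entry of the family had such a value. cpi-mir-1677h-5p, its entry with the most counts (1561), picked for that reason after its values had been seen, had medians of 106 (T0), 122 (T1) and 121 (T2) CPM and a log2 fold change of 0.10 (SE 0.32) at T1 against T0.

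**Figure D3:**
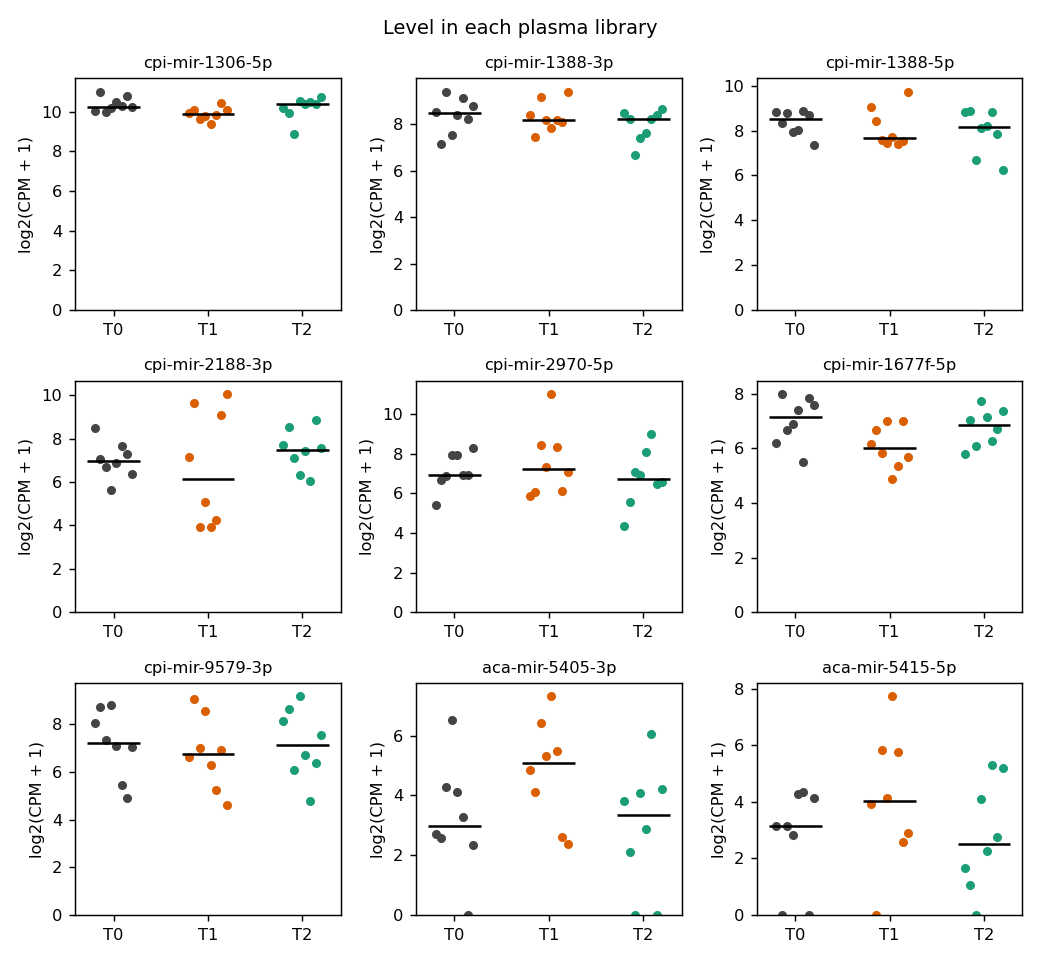
Level of 9 entries in each of the 8 libraries at T0, T1 and T2, as log2(CPM + 1), where points are libraries and bars are medians. The 8 points of cpi-mir-1677f-5p at T1 lie below the T0 median, and cpi-mir-2970-5p at T1 has 1 library far above the others.

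The largest positive values at T1 against T0 among the 60 were those of mir-2188-5p under oha and aca, from a family of fishes, birds and reptiles. oha-mir-2188-5p, with 298 counts in all, had 4.95 to 33.2 CPM at T0 (median 10.9), 6.72 to 293 at T1 (median 23.0) and 2.16 to 169 at T2 (median 15.9), with 7 of 8 libraries at T1 above the T0 median. Its log2 fold change at T1 against T0 was 1.77 (SE 0.77, adjusted p = 0.518 in edgeR), and 0.485 without T1 replicate t44, the library at 293 CPM. The abundant arm cpi-mir-2188-3p had 49.2 to 355 CPM at T0 (median 125), 14.1 to 1057 at T1 (median 87.0) and 65.2 to 462 at T2 (median 178). At T1 its libraries reached both below and above all those of T0. The log2 fold change was 1.12 (SE 0.71, adjusted p = 0.671 in edgeR) while the median at T1 was below that at T0, and it was 0.514 without T1 replicate t53.

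cpi-mir-2970-5p had 40.8 to 304 CPM at T0 (median 120), 56.5 to 2039.85 at T1 (median 146) and 19.4 to 513 at T2 (median 106). The highest value, again in T1 replicate t44, was several times the next one. The log2 fold change was 1.30 (SE 0.69, adjusted p = 0.625 in edgeR) at T1 against T0 and -1.30 (SE 0.69, adjusted p = 0.846 in edgeR) at T2 against T1, and without that library 0.0219 and -0.0218. cpi-mir-2970-3p, from the same hairpin, had medians of 37.2 (T0), 47.4 (T1) and 49.7 (T2) CPM. T1 replicates t44 and t53 had the highest CPM of the 24 libraries in 7 (11.7%) and 9 (15.0%) of the 60 entries, against 10.6% and 7.83% of all 690. Libraries of other times also stood high. T0 replicate t52 was highest in 8 (13.3%, against 2.90% of all 690) and T2 replicate t42 in 7 (11.7%, against 2.03%). The 9 of t53 were all species entries of mir-1388-5p, mir-2188-3p and mir-1388-3p. Those of t52 included every species entry of mir-1306-3p, and those of t42 both aca-mir-1677b-5p and oha-mir-1677b-5p, which had equal counts. Entries of one name may share reads, so none of these numbers is one of separate observations. Replicate t53 was also the library with the highest share of its counts on the 405 entries. The part of t44 and t53 in the results beyond the values without them was not tested.

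At T2 against T0 the extremes of the 60 were ami-mir-1329-3p and cpi-mir-1416-3p. ami-mir-1329-3p had 0 to 57.7 CPM at T0 (median 16.8), 19.2 to 53.8 at T1 (median 42.3) and 0 to 171 at T2 (median 26.0), with all 8 libraries of T1 and 5 of T2 above the T0 median. Its log2 fold change at T2 against T0 was 1.20 (SE 0.74, adjusted p = 0.758 in edgeR), and 0.320 without T2 replicate t36. The painted turtle entry of the same name, cpi-mir-1329-3p, had more than 3 times the counts (2053 against 623) and a log2 fold change of 0.15 (SE 0.44). cpi-mir-1416-3p had 18.5 to 160 CPM at T0 (median 46.1), 5.65 to 182 at T1 (median 26.9) and 17.3 to 68.2 at T2 (median 26.2). Its log2 fold change at T2 against T0 was -1.01 (SE 0.65, adjusted p = 0.758 in edgeR). The opposite arm, cpi-mir-1416-5p, had 7 counts, all in 1 library.

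**Figure D4:**
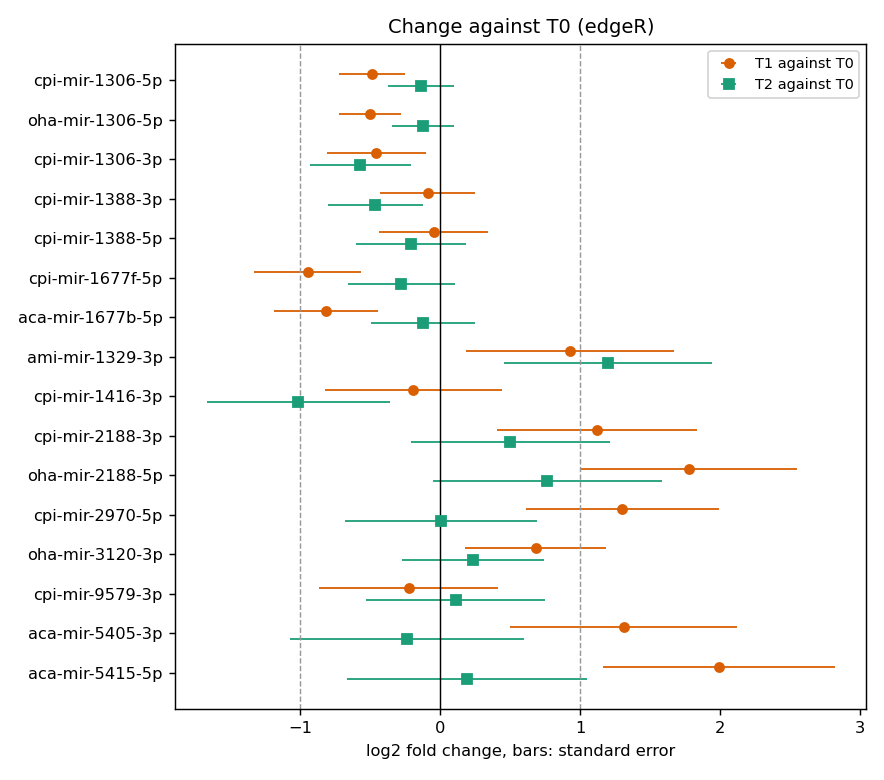
Log2 fold change of 16 entries at T1 against T0 (circles) and T2 against T0 (squares), with approximate standard errors as bars and the fold limit of 1 as dashed lines. The values of aca-mir-5405-3p and aca-mir-5415-5p come from the fit without a filter on low counts. None of these values passed the test, and oha-mir-2188-5p at 1.77 and aca-mir-5415-5p at 1.99 lie farthest to the right.

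mir-3120 was listed only under the king cobra and could not be told apart from another miRNA. In mammals its hairpin lies on the strand opposite to mir-214, so that the hairpins are close to reverse complements of each other. oha-mir-3120-3p had 1545 counts and cpi-mir-214-5p 1516, with the same count in 18 of 24 libraries and a difference of at most 8. oha-mir-3120-5p had 794 counts and cpi-mir-214-3p 826, equal in 17 of 24 libraries, again with a difference of at most 8. No oha entry of mir-214 was listed. The level of oha-mir-3120-3p was 17.3 to 222 CPM at T0 (median 109), 53.8 to 427 at T1 (median 153) and 40.3 to 264 at T2 (median 97.1). Its log2 fold changes were 0.68 (SE 0.51) at T1 against T0 and 0.23 (SE 0.51) at T2 against T0, and 0.397 without T1 replicate t44 and 0.0200 without T2 replicate t42. Reads of mir-3120 and of mir-214 therefore cannot be told apart here.

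**Figure D5:**
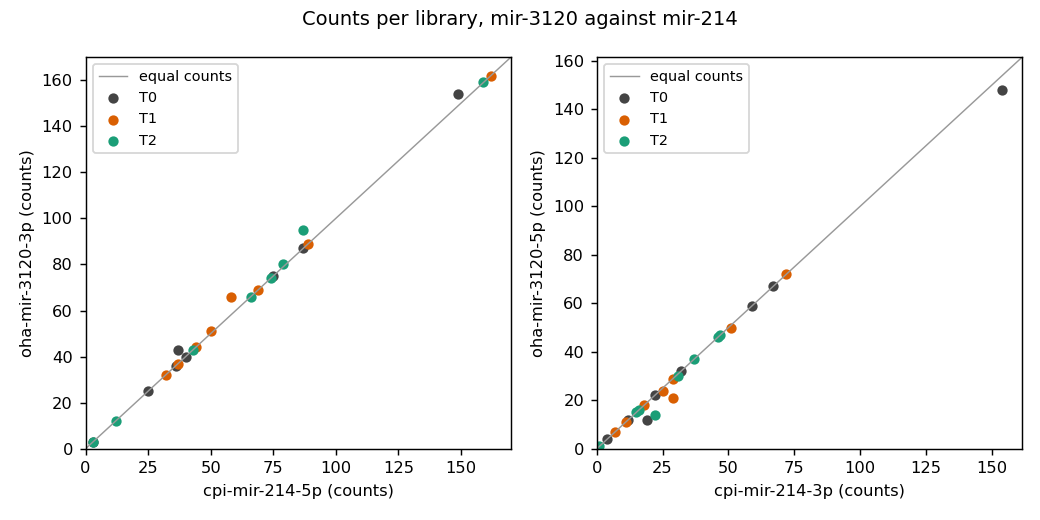
Counts in each of the 24 libraries of the mir-3120 entries (y axis) against those of the mir-214 entries with nearly the same counts (x axis), coloured by time point; the line marks equal counts. The points lie on or within 8 counts of the line.

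Among names found under a single prefix, painted turtle families of number 9572 and above gave several with a count in every library. cpi-mir-9579-3p, with 2576 counts and number 74 among the cpi entries by mean CPM, was the highest entry of number 5000 or above. It had 28.8 to 443 CPM at T0 (median 149), 23.4 to 534 at T1 (median 108) and 26.7 to 572 at T2 (median 144). The libraries of one time point differed more than 10 times, and the log2 fold changes were -0.23 (SE 0.64) at T1 against T0 and 0.11 (SE 0.64) at T2 against T0. The opposite arm, cpi-mir-9579-5p, had 321 counts. cpi-mir-9578-5p and cpi-mir-9587-3p, picked after their values had been seen, had 1500 and 1422 counts and a count in every library, with log2 fold changes of -0.55 (SE 0.36) and 0.03 (SE 0.54) at T1 against T0. The highest alligator entry of the block, ami-mir-9602-5p, picked in the same way, had 626 counts and was also in every library.

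The lizard families mir-5405 and mir-5415 were each listed under aca alone, and the filter on low counts kept none of their entries. That filter does not go by the total alone, since it kept aca-mir-5393-5p with 188 counts. aca-mir-5405-3p had 227 counts in 21 libraries, with 65, 115 and 47 counts at the 3 times in order. The level was 0 to 92.3 CPM at T0 (median 7.14), 4.25 to 158 at T1 (median 33.8) and 0 to 65.2 at T2 (median 9.64), and 6 of 8 libraries at T1 lay above the T0 median. In edgeR without the filter the log2 fold change at T1 against T0 was 1.31 (SE 0.81, adjusted p = 0.629), and it was 0.654 without T1 replicate t44 and 2.18 when T0 replicate t40 was left out. The other entry, aca-mir-5415-5p, had 209 counts in 20 libraries, with 61, 111 and 37 counts at the 3 times in order. The level was 0 to 19.5 CPM at T0 (median 7.85), 0 to 211 at T1 (median 15.3) and 0 to 38.5 at T2 (median 4.74). The log2 fold change at T1 against T0 in the same edgeR fit was 1.99 (SE 0.83, adjusted p = 0.423), and it was 0.863 without T1 replicate t44, while at T2 against T0 it was 0.19 (SE 0.86). In DESeq2 the adjusted p at T1 against T0 was 0.509 for aca-mir-5405-3p and 0.312 for aca-mir-5415-5p. The study listed mir-5405-3p and mir-5415-5p as higher at T1 than at T0, by DESeq2 at the same limits, whereas neither was called here. Why the outcomes differ was not tested. The study had picked both on these same samples, so their values here are no independent evidence. The opposite arms were barely seen, with 3 counts in 2 libraries for aca-mir-5405-5p and 7 counts in 5 libraries for aca-mir-5415-3p. aca-mir-5415-3p had 0 counts over the 8 libraries of T2. If counts varied by random sampling alone, a total of 0 would still allow an expected total of up to about 3. The spread between libraries can be wider, so that limit need not hold.

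Several other entries of the lizard block had more counts than aca-mir-5405-3p and aca-mir-5415-5p. The block had 1 entry with a count in every library, aca-mir-5417-3p, with 242 counts and at most 28 in a library. Its medians were 22.7 (T0), 23.2 (T1) and 18.6 (T2) CPM. aca-mir-5435c-5p, the entry of the block with the most counts (356), had medians of 32 (T0), 15.6 (T1) and 10.7 (T2) CPM and a log2 fold change of -1.10 (SE 0.65, adjusted p = 0.66 in edgeR) at T1 against T0, the lowest of the 60 entries in that comparison. aca-mir-5407-3p had 250 counts, of which 129 were in T0 replicate t43 alone. These 3 were picked after their values had been seen.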

How the data were processed

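Libraries were grouped by the time in their labels, which do not name the turtle. The authors clipped adapters with Cutadapt, aligned reads with BWA to miRBase hairpins of 4 reptiles, and deposited raw counts of reads per mature entry. The 3988 rows hold every one of the 1994 entries a second time with equal counts, and 1 of the 2 rows was kept. The labels and the study's methods name different RNA extraction kits, and which one was used was not settled. Counts were normalized by TMM in edgeR (4.0.16, R 4.3.3), filtered with filterByExpr and tested with the quasi-likelihood test in one model over 24 libraries, with Benjamini-Hochberg adjustment over the 690 entries kept. The SE given with a log2 fold change is the size of that change divided by the square root of the test's F statistic. It is approximate and need not match every p. CPM is over the total of these entries scaled by TMM, and plots add a pseudocount of 1. DESeq2 (1.42.0) was an alternative. The edgeR fit alone was also run on simulated counts, drawn with the same spread for every entry and no link between entries or turtles. Such counts are simpler than these data. Python 3.11.15 with pandas 2.3.3 and matplotlib 3.10.9 made the descriptions and plots. Each p-value sets a difference between time points against the spread between libraries within the time points. The fit could not use that the same 8 turtles were sampled at each time.

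The members and lists were chosen with earlier results of these data known. Entries were named by a rule: per comparison the called entries or else the 3 tested ones with the smallest p, the 10 with the highest mean CPM, all of mir-5405 and mir-5415, the entry with the most counts in each number range, and their other arms and species entries. Others are marked in the text as picked after their values had been seen. No sequences of these miRNAs or genome coordinates were used here.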

Additional observations from a re-analysis of the deposited data

Results flagged for a closer look

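Among 75 sets of 8 libraries (25 entries or measures at 3 time points), 8 had 1 library far from the rest. The measure was the gap to its nearest neighbour as a share of the whole range, with Dixon's 95% limit. Chance passes this limit in about 1 of 20 sets of normally distributed values. CPM values were often skewed, so that rate need not hold here. For oha-mir-2188-5p the gap was 0.876 of the range at T1 (replicate t44) and 0.639 at T2 (replicate t39, with 5 counts). For cpi-mir-2970-5p it was 0.858 at T1 (replicate t44), and for aca-mir-5415-5p 0.733 at T1, again in replicate t44. For aca-mir-5405-3p it was 0.801 at T0 (replicate t40) and 0.729 at T2 (replicate t48). For oha-mir-1306-5p it was 0.744 at T1 (replicate t50), and for ami-mir-1329-3p 0.649 at T2 (replicate t36).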

How the results depend on the processing

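The alternatives were DESeq2, its size factors in edgeR, a stricter filter (10 counts in 8 libraries), no filter, duplicate rows kept, only the time points compared, other limits, summing over species, and leaving out each library. By adjusted p the number of entries called was 0 in each of these. By unadjusted p and fold edgeR passed 2, 0 and 0 entries and DESeq2 8, 4 and 10 at T1 against T0, T2 against T0 and T2 against T1, and edgeR 9, 0 and 0 by unadjusted p alone. The share of counts on these entries, with cpi entries alone, had medians of 1.65% (T0), 1.44% (T1) and 1.52% (T2), so that T2 lay above T1 and not below it. The medians of entries detected were 58.5, 50.5 and 54 at 10 counts, and 65.4, 67.6 and 60.4 at equal depth, at T0, T1 and T2. Only 37 fold changes, from part of the named entries, were followed through the alternatives. None of the 37 was called, with 0.312 the lowest adjusted p in edgeR or DESeq2. The low entry aca-mir-5415-3p was not among them and had an adjusted p of 0.258 at T2 against T1 in edgeR without the filter. Of the 37, 26 kept their sign and 11, at most 0.24 in size, did not. For cpi-mir-2970-5p at T2 against T0 no filter gave -0.0284, and for cpi-mir-1388-5p at T1 against T0 DESeq2 gave 0.0138 and its size factors 0.0123. Over single libraries left out, log2 fold changes at T2 against T0 ran from -0.211 to 0.0107 (oha-mir-1306-5p), -0.557 to 0.214 (cpi-mir-2970-5p), -0.288 to 0.0248 (aca-mir-1677b-5p and oha-mir-1677b-5p), -0.252 to 0.373 (cpi-mir-9579-3p), -1.185 to 0.635 (aca-mir-5405-3p) and -0.355 to 0.455 (aca-mir-5415-5p). At T1 against T0 they ran from -0.710 to 0.144 (cpi-mir-1416-3p), -0.368 to 0.0734 (cpi-mir-1388-3p), -0.480 to 0.0715 (cpi-mir-1388-5p) and -0.862 to 0.0411 (cpi-mir-9579-3p). DESeq2 and left-out libraries for aca-mir-5405-3p and aca-mir-5415-5p were added after seeing the data. No paired analysis was possible because no label ties a library to a turtle or gives a replicate number shared between time points. With a median of 26 counts per entry, most of the set was too shallow to test.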
